A study of Mus musculus with 6 samples.

Results

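The pentose phosphate pathway enzymes are the 7 gene products that carry glucose-6-phosphate through the oxidative and non-oxidative branches of the pathway: *G6pdx*, *Pgls*, *Pgd*, *Rpia*, *Rpe*, *Tkt* and *Taldo1*. They were chosen by gene symbol, and all 7 were found among the 23420 genes of the RNA-Seq table. The study removed *Raptor* (*Rptor*), the scaffold subunit of the growth kinase complex mTORC1, from the mouse lung epithelium and asked which genes differ between control and mTORC1-deficient lungs. RNA was taken from whole embryonic lungs at the stage labelled E11.5dpc, in 3 control pools (Raptorf/+; ShhCre/+) and 3 mutant pools (Raptorf/f; ShhCre/+), each made of several lungs of 1 genotype, the controls being littermates of the mutants. Both groups carried the Cre recombinase at the *Shh* locus and at least 1 floxed *Raptor* allele, so controls were heterozygous wherever Cre acted. *Shh* Cre acts in the epithelium, whereas the lungs also held mesenchyme, vessels and blood. In such bulk RNA, fewer cells of a type and less RNA per cell cannot be told apart. The p-values below measure the spread between these pools of different embryos.

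The pathway branches off glycolysis at glucose-6-phosphate. Its oxidative branch yields NADPH, the reducing power for lipid synthesis and for the glutathione and thioredoxin systems, together with ribulose-5-phosphate. Its non-oxidative branch interconverts sugar phosphates, so that carbon can leave as ribose-5-phosphate for nucleotides or return to glycolysis. In cultured cells mTORC1 is known to raise transcription of oxidative branch genes through the sterol-responsive factor SREBP, and NRF2, a factor of the oxidative stress response, is known to act on several genes of both branches.

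The 5′ sequences of 3 members are shown because these genes carry the contrasts described below: *G6pdx* encodes the entry enzyme and is X-linked, *Rpia* was the member whose groups were apart, and *Tkt* was the most abundant member and had the lowest log2 fold change. Each runs from 250 bases before to 50 bases after a RefSeq start site in GRCm38.p6, 5′ to 3′ on the strand of the gene. Capitals mark matches, on either strand, to the GC box GGGCGG and to the core of the antioxidant response element TGACNNNGC.

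G6pdx, chrX:74428831-74429130, minus strand: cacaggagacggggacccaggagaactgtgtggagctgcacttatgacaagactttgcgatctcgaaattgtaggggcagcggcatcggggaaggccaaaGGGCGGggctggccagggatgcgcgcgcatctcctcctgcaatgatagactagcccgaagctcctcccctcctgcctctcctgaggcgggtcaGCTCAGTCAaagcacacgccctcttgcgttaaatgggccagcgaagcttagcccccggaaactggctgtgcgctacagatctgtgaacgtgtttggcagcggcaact

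Rpia, chr6:70792126-70792425, minus strand: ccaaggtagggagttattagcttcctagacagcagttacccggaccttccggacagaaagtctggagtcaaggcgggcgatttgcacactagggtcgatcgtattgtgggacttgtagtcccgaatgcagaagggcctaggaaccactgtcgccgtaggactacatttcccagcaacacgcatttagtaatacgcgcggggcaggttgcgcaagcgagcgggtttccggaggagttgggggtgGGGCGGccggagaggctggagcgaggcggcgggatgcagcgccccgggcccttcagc

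Tkt, chr14:30548881-30549180, plus strand: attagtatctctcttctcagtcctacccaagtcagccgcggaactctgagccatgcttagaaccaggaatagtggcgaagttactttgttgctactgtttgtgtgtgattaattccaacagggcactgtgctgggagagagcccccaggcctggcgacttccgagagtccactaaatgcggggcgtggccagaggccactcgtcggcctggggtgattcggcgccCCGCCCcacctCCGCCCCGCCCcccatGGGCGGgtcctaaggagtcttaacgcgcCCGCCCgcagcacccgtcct

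A GC box was found in a start-site window of all 7 members, against 35.6% of 32817 RefSeq promoter windows of the same length. The *Tkt* window held 5 of them, and 2 of these 5 share a base. An antioxidant response element core was found for *G6pdx* and for an alternative start of *Pgd*, against 12.4% of all windows. A CCAAT box was found for *Pgd*, *Rpe* and *Taldo1*, against 37.4% of all windows. The E-box CACGTG, present in 7.15% of windows, and the sterol element TCACNCCAC, present in 1.24%, were not found in the windows of any member. The windows at the first listed start of each member were between 56.7% and 67.3% GC, and the median over all windows was 52.7%. A match is a stretch of letters and says nothing about binding.

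The libraries were of even depth. Dividing out the size factor of each library gave back whole reads for 100% of the values within a tolerance of 0.1, and these reads summed to between 20197642 and 21276090 per library. *Rptor*, the targeted gene, measured 2126, 2193 and 2279 normalized counts in control pools 1 to 3, against 2023, 2137 and 2148 in mutant pools 1 to 3. Its log2 fold change was -0.065 (limma adjusted p = 0.584), with overlapping groups. The counts cover the whole gene in the whole lung, and the deleted exons were not analysed here. Epithelial marker genes, all 20 of which were detected, summed to 24285 to 29021 normalized counts in control pools and 20707 to 21765 in mutant pools. Mesenchymal marker genes summed to 110164 to 116777 and to 132999.5 to 140065.

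Between mutant and control lungs, no pentose phosphate pathway enzyme passed a limma p adjusted over all 17168 genes tested, where 86 genes (0.501%) passed the 0.05 threshold. Adjusted p of the members ran from 0.321 to 0.942, and 1 of the 7 passed an unadjusted p of 0.05. On the recovered reads, edgeR and DESeq2 also called 0 members after adjustment and 1 each before it, *Rpia* in edgeR and *Tkt* in DESeq2. For neither tool was the share of all genes past an unadjusted p computed, so these single calls have no background. *Rpia* was 10% higher on average in mutant pools, at an unadjusted p only, and was the only member whose groups did not overlap. *G6pdx*, *Pgd*, *Tkt* and *Taldo1* had mutant means that differed from the control means by -7.93% to -4.91%, and *Pgls* and *Rpe* had means 2.72% and 1.46% above. The 95% intervals of the 7 fold changes together reached from 0.844 to 1.2, so that a change of any member beyond that range in the whole lung lies outside its interval. The count of 86 was itself unsteady, with 1 gene called without control pool 1, 147 without control pool 2, 468 without control pool 3, 12 without mutant pool 1, 21 without mutant pool 2 and 1 without mutant pool 3.

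**Figure D1:**
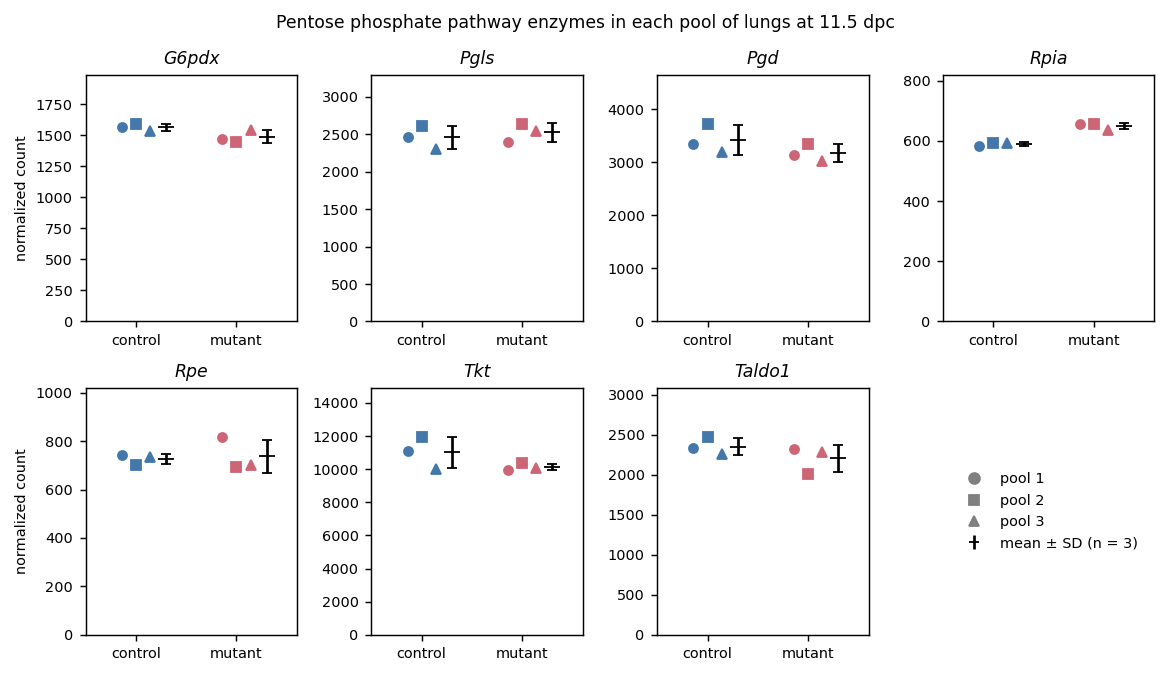
Normalized counts of the 7 enzymes (y axis, from 0) in each control and mutant pool at E11.5dpc. Symbols mark pools 1, 2 and 3, and black bars give mean ± SD (n = 3). The groups overlap for every gene except *Rpia*, whose mutant pools lie between 637 and 656 and whose control pools lie between 583 and 594.

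In the oxidative branch, *G6pdx* encodes glucose-6-phosphate dehydrogenase, which commits glucose-6-phosphate to the pathway and makes its first NADPH. It lies on chromosome X from 74409483 to 74429194 (GRCm38). *G6pdx* measured 1569.6, 1592 and 1534 normalized counts in control pools 1 to 3, against 1474, 1445 and 1545 in mutant pools 1 to 3. Mutant pools 1 and 2 lay below every control pool, and mutant pool 3 lay above control pool 3, so the groups overlapped by that 1 pair. Means were 1565 ± 29.4 in control and 1488 ± 51.3 in mutant pools (SD, n = 3). The log2 fold change was -0.073 ± 0.047 (SE), with a 95% interval from -0.18 to 0.031 (limma adjusted p = 0.53).

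*Pgls* encodes 6-phosphogluconolactonase, which opens the lactone made by *G6pdx*, and lies on chromosome 8 from 71592176 to 71601092. Its normalized counts were 2462, 2615 and 2298 across the controls, against 2395, 2639 and 2541 across the mutants. The pool-to-pool range within either group was wider than the gap between the means of 2458 ± 158 and 2525 ± 123. The log2 fold change was 0.04 ± 0.057, with an interval from -0.087 to 0.17 (limma adjusted p = 0.809). This sign turned with the setting: it was -0.0081 without control pool 3.

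*Pgd* encodes 6-phosphogluconate dehydrogenase, which makes the second NADPH and releases ribulose-5-phosphate, and lies on chromosome 4 from 149149991 to 149166771. It measured 3349, 3726 and 3189.6 normalized counts across the controls, against 3131, 3355 and 3032 across the mutants. Control pool 2 stood above all other pools, and mutant pool 2 exceeded control pools 1 and 3. Means were 3422 ± 276 and 3173 ± 166, and the log2 fold change was -0.11 ± 0.061, with an interval from -0.24 to 0.029 (limma adjusted p = 0.478). Without single pools the value of *Pgd* stayed between -0.16 and -0.044.

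In the non-oxidative branch, *Rpia* encodes ribose-5-phosphate isomerase, the step that turns ribulose-5-phosphate into the ribose used for nucleotides, and lies on chromosome 6 from 70765720 to 70792232. *Rpia* measured 583, 594 and 593 normalized counts across the controls, against 656, 655 and 637 across the mutants. Every mutant pool was above every control pool, and the gap between the nearest pools was larger than the range within either group. Means were 590.3 ± 5.94 and 649 ± 10.7, and the log2 fold change was 0.14 ± 0.056, with an interval from 0.012 to 0.26 (limma adjusted p = 0.321).

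The call of *Rpia* rested on the unadjusted p alone, which 1145 of the 17168 genes (6.67%) also passed in the higher direction and 1183 (6.89%) in the lower direction. Groups without overlap were likewise found for 9.77% of all genes with mutant pools higher and for 10.5% with mutant pools lower. Thus 1 of 7 members was higher and 0 of 7 were lower by either reading. The control pools of *Rpia* were closer to each other than counting alone gives on average: their coefficient of variation was 1.01%, while the counting error of the shallowest library, with 575 reads of *Rpia*, was 4.17%. Leaving out single pools kept its log2 fold change between 0.13 and 0.15, but the unadjusted p passed 0.05 only without control pool 3.

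*Rpe* encodes ribulose-5-phosphate epimerase, which makes xylulose-5-phosphate, the other entry into the non-oxidative branch, and lies on chromosome 1 from 66700831 to 66719805. Its normalized counts were 742, 703 and 736 across the controls, against 816, 692 and 703 across the mutants. Mutant pool 1 was the highest of the 6 and the other mutant pools lay below or close to the lowest control pool. Means were 727 ± 21 and 737 ± 68.8, and the log2 fold change was 0.017 ± 0.072, with an interval from -0.14 to 0.18 (limma adjusted p = 0.942). The sign rested on mutant pool 1 and control pool 2: the value was -0.058 without the former and -0.0068 without the latter.

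*Tkt* encodes transketolase, which moves carbon pairs between sugar phosphates and links the pathway back to glycolysis, and lies on chromosome 14 from 30548359 to 30574720. It measured 11067, 11929 and 10023 normalized counts across the controls, against 9957, 10356 and 10087 across the mutants. Control pools 1 and 2 stood above all mutant pools, whereas control pool 3 lay within the mutant range. Means were 11006 ± 954 and 10133 ± 203, and the log2 fold change was -0.12 ± 0.057, with an interval from -0.24 to 0.012 (limma adjusted p = 0.409).

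The result for *Tkt* depended on control pool 3. Without that pool the log2 fold change was -0.18 (limma adjusted p = 0.0259), in a comparison in which 468 of 16993 genes (2.75%) passed. There *Tkt* was the only member past the adjusted threshold, and its value without any other single pool reached -0.056 at its smallest. With control pool 2, the highest control for *Tkt*, as the only control, a comparison added after the data were seen, the value was -0.24 and 210 of 16713 genes (1.26%) passed. The spread in that comparison comes from the 3 mutant pools alone, with the lone control assumed to vary as they do, so it adds no support for a call of *Tkt*.

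*Taldo1* encodes transaldolase, which acts beside transketolase on sedoheptulose-7-phosphate, and lies on chromosome 7 from 141392199 to 141402968. Its normalized counts were 2331, 2469 and 2257 across the controls, against 2317, 2014 and 2287 across the mutants. Mutant pool 2 stood below the other 5 pools, and mutant pools 1 and 3 lay within the control range. Means were 2352 ± 108 and 2206 ± 167, and the log2 fold change was -0.094 ± 0.061, with an interval from -0.23 to 0.041 (limma adjusted p = 0.533).

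**Figure D2:**
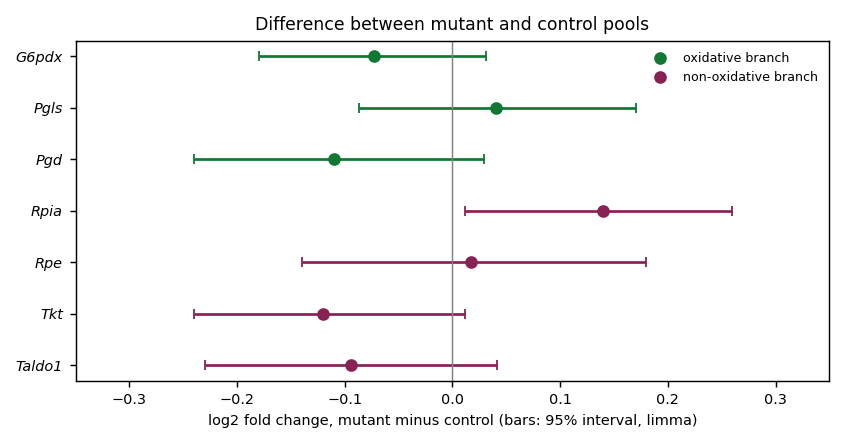
Log2 fold change of each enzyme between mutant and control pools (x axis), with 95% intervals from limma, coloured by branch. The intervals of 6 enzymes include 0, and that of *Rpia* runs from 0.012 to 0.26 before adjustment over genes.

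Among the members 3 had positive and 4 had negative log2 fold changes, with a median of -0.073, beside a median of -0.0021 over all 17168 genes. Scaled to epithelial markers, all 7 were positive with a median of 0.28, beside a median of 0.36 over all genes. The median size of the change, without its sign, was 0.0945 for the members, between the 0.101 of all genes tested and the 0.0596 of the 7832 genes with a mean of at least 500 normalized counts. For all 7 members, the fitted error was larger than counting alone gives. For *Tkt*, with 32898 reads over the control pools and 30584 over the mutant pools, counting alone would give a standard error of 0.011 on the log2 scale against 0.057 in the fit. For *Rpia*, with 1766 and 1959 reads, counting alone would give 0.047 against 0.056.

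Averaged within pools and set relative to the mean of all 6, the log2 level of the oxidative branch was 0.017, 0.10 and -0.051 in control pools 1 to 3, against -0.059, 0.012 and -0.023 in mutant pools 1 to 3. The log2 level of the non-oxidative branch was 0.010, 0.045 and -0.034 across the controls, against 0.047, -0.050 and -0.018 across the mutants. Control and mutant pools overlapped for both branches, and so did the difference between branches, whose mean was -0.033 on the log2 scale as mutant minus control. That difference changed sign when single pools were left out, from -0.072 to 0.012. The 7 genes together made up 0.106%, 0.113% and 0.0996% of all normalized counts across the controls, against 0.0998%, 0.101% and 0.1% across the mutants.

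Ratios between members within a pool do not depend on the scaling of the library. The log2 ratio of *Rpia* to *Tkt* counts was -4.25, -4.33 and -4.08 across the controls, against -3.92, -3.98 and -3.99 across the mutants, so every mutant pool had more *Rpia* per *Tkt*, by 0.25 on average. The log2 ratio of *Pgls* to *Pgd* was -0.44, -0.51 and -0.47 across the controls, against -0.39, -0.35 and -0.25 across the mutants, also apart, by 0.15. The other 4 ratios computed, *Rpia* to *Rpe*, *Pgd* to *G6pdx*, *Taldo1* to *Tkt* and *Pgls* to *G6pdx*, overlapped between the groups. These 6 ratios were chosen with the members' values known and are given without a test. *Rpia* and *Tkt* had the highest and lowest log2 fold changes of the members, at 0.14 and -0.12. The share of ratios that are apart among other pairs of genes was not computed.

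Per kilobase of the principal annotated transcript, the level was highest for *Tkt* at 3415 ± 296 normalized counts in control pools, followed by *Pgls* at 2753 ± 177 and *Taldo1* at 1914 ± 87.5. *Pgd* followed at 1543 ± 124 and *G6pdx* at 590.2 ± 11.1, and *Rpia* at 323 ± 3.25 and *Rpe* at 269.9 ± 7.81 were lowest. Neighbours in this order did not overlap between pools, in control or in mutant lungs, and the order was the same in mutant lungs. The order depended on the gene model used. Per kilobase of all annotated exons, *Taldo1* (1084) stood above *Pgls* (652), and *Rpe* (233) above *Rpia* (110.1). By raw level, the 7 genes lay between percentiles 58.6 (*Rpia*) and 98.8 (*Tkt*) of the genes tested.

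**Figure D3:**
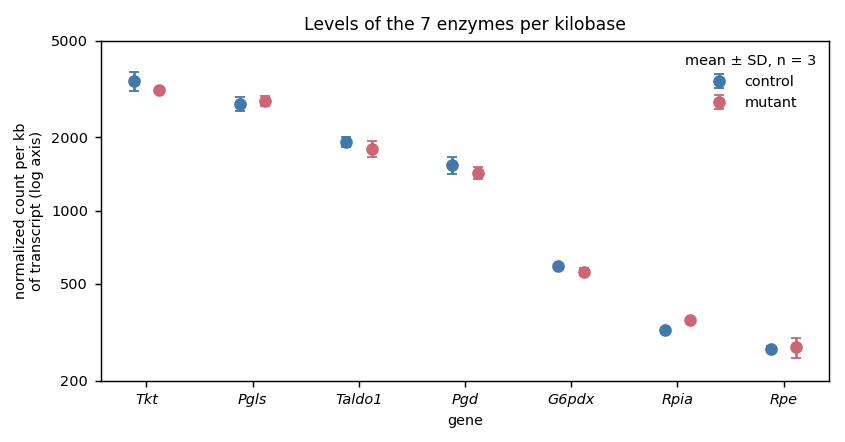
Normalized count per kilobase of the principal transcript (y axis, log scale) for the 7 enzymes, mean ± SD over 3 control and 3 mutant pools. Levels run from 3415 for *Tkt* to 269.9 for *Rpe* in control pools, with the same order in both groups.

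Exon bases of *G6pdx*, *Rpe* and *Pgls* are shared with other protein-coding genes, and the strand setting of the counting is not given in the sources used here. *G6pdx* shares 13.6% of its exon bases with *Ikbkg* on the opposite strand, *Rpe* shares 17.9% with *Kansl1l* on the opposite strand, and *Pgls* shares 20.6% with *Fam129c* on its own strand. Reads in those stretches cannot be assigned with certainty. *G6pd2*, an intronless copy of *G6pdx* with 93.2% identity over 2332 bases, was listed at 0 in all pools. *Tkt* shares 1 exon base with the microRNA gene *Mir3076*. A processed pseudogene of *Taldo1*, *Gm17823*, has 94.7% identity over 923 bases and was not matched in the table. The values of *G6pdx*, *Rpe*, *Pgls* and *Taldo1* are uncertain to that extent.

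The X-linked *G6pdx* was set beside genes that report the sex of the pooled embryos. *Xist*, the RNA of the inactive X chromosome, measured 4599, 309 and 12989 normalized counts in control pools 1 to 3, against 41.9, 466 and 161 in mutant pools 1 to 3. The Y-linked *Ddx3y* measured 1016, 1198 and 735 across the controls, against 1212, 1198 and 1177 across the mutants, and *Eif2s3y*, *Kdm5d* and *Uty* were also present in every pool. Control pools 1 and 3 therefore held more *Xist* than any mutant pool. *G6pdx* was lowest among controls in pool 3, the pool with the most *Xist*. *Xist* itself was lower on average in mutant pools, at -4.16 on the log2 scale (limma adjusted p = 0.164), with overlapping groups. DESeq2 called it after adjustment. *Ddx3y* and *Uty* were higher in mutant pools at an unadjusted p only, at 0.31 and 0.26 (limma adjusted p = 0.362 and 0.352). *Eif2s3y* and *Kdm5d* did not pass it, and 6.67% of all genes passed in that direction. Sex makeup and genotype were thus partly confounded, and a fit with *Xist* as a covariate cannot tell them apart for any member. In that fit the log2 fold change of *G6pdx* was -0.11 (limma adjusted p = 0.623). In that fit 3 members passed an unadjusted p of 0.05, *Pgd* at -0.20, *Tkt* at -0.23 and *Taldo1* at -0.23, with adjusted p of 0.424, 0.272 and 0.26, while 985 of the 17168 genes (5.74%) were lower at an unadjusted p in the same fit. *Rpia* was at 0.13 in that fit and did not pass (limma adjusted p = 0.632).

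The control pools were ordered alike for most members. Control pool 2 was the highest of the 3 controls for 6 of 7 members, all but *Rpe*, and control pool 3 was the lowest for 5 of 7. Some of these ranks rested on gaps smaller than the counting error, as for *Rpia* at 594 and 593 in control pools 2 and 3. Genes of glycolysis that share intermediates with the pathway mostly had the opposite order. Among the 15 measured, control pool 3 was the highest control for 10 and control pool 2 the lowest for 9. Genes outside both pathways had either order. The folate enzyme *Mthfd1*, the reductase *Txnrd1* and the epithelial marker *Cdh1* had control pool 2 highest and control pool 3 lowest. *Gclc*, of glutathione synthesis, and *Mycn* had the reverse. For both, control pools 1 and 3 were nearly level, at 986 and 989 for *Gclc* and 2497 and 2498 for *Mycn*. Neither order was thus particular to these pathways, and its share over all genes was not computed. Such an order within the controls is not part of the comparison of genotypes, and no test was made of it.

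**Figure D4:**
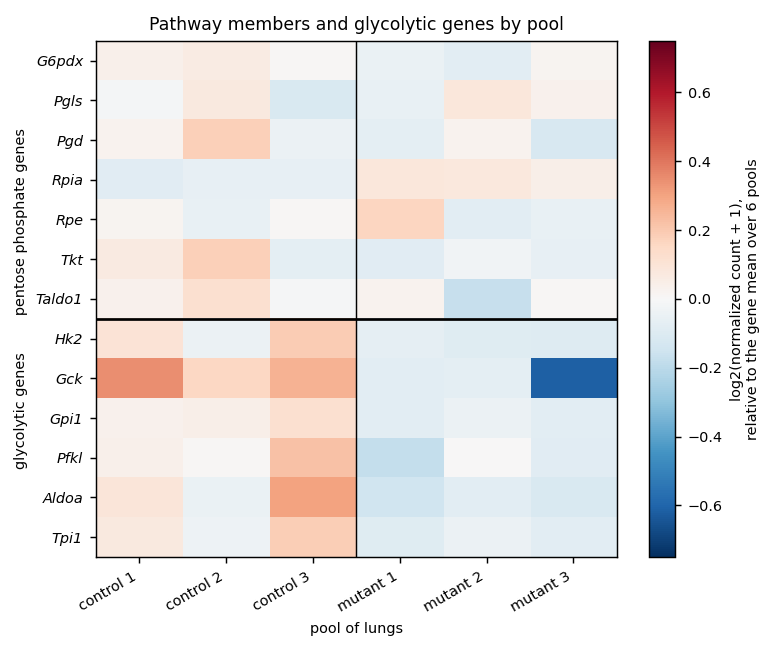
Log2(normalized count + 1) of the 7 enzymes (upper rows) and of the 6 glycolytic genes lower in mutant pools at an unadjusted p of 0.05, *Gapdh* aside (lower rows), relative to the mean of each gene over the 6 pools (columns). Control pool 2 is the highest control for 6 of the 7 enzymes, and control pool 3 is the highest control for 5 of the 6 glycolytic genes.

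At the junction with glycolysis, 0 of 15 genes passed the adjusted threshold, 7 were lower and 0 higher at an unadjusted p of 0.05, and the median log2 fold change was -0.10. *Gpi1*, the isomerase that competes with *G6pdx* for glucose-6-phosphate, measured 8471, 8547 and 9024 normalized counts across the controls, against 7857, 8045 and 7862 across the mutants. Its groups were apart, at -0.13 on the log2 scale (limma adjusted p = 0.176). *Aldoa*, an aldolase of the triose phosphate step, was also apart, at -0.23 (limma adjusted p = 0.206), and was the only gene of the list that DESeq2 called. *Gapdh* was scattered within groups, at 5277, 1599 and 1981 across the controls, against 142, 175 and 1873 across the mutants (log2 fold change -2.83, adjusted p = 0.171). Several processed copies of *Gapdh* exist in the mouse genome, and its value is uncertain.

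Of 12 tested genes from elsewhere in the pathway, 0 passed the adjusted threshold, 2 were higher and 1 lower at an unadjusted p, and the median was 0.037. *H6pd*, the dehydrogenase of the endoplasmic reticulum that carries out the first oxidative steps there, was at 0.16 (limma adjusted p = 0.296). The phosphoribosyl pyrophosphate synthetases, which use the ribose-5-phosphate made by *Rpia*, lay on opposite sides of 0. *Prps1* was at 0.15 (limma adjusted p = 0.356), with overlapping groups. *Prps2* was at -0.17 (limma adjusted p = 0.235), from 1171, 1187 and 1059 among the controls to 1029, 1023 and 986 among the mutants, with the groups apart. *Tktl2*, a transketolase-like gene, was listed at 0 in all pools.

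Of 13 tested genes that make NADPH by other routes or make its precursor NADP, 0 passed the adjusted threshold, 2 were lower and 0 higher at an unadjusted p, and the median was -0.066. *Mthfd1*, a folate enzyme of the cytosol that can yield NADPH, measured 2622, 2856 and 2579 normalized counts across the controls, against 2396, 2275 and 2344 across the mutants. All mutant pools were below all control pools, at -0.20 on the log2 scale (limma adjusted p = 0.124). Its mitochondrial relative *Mthfd2* was at -0.16 (adjusted p = 0.306), and *Nadk*, the kinase that makes NADP, was at -0.10 (adjusted p = 0.389), both also with groups apart.

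Of 16 genes of the glutathione and thioredoxin systems, which spend NADPH, 0 passed the adjusted threshold and 2 were lower at an unadjusted p, with a median of 0.00019. These were the NADPH-using reductases *Gsr*, for glutathione, at -0.22 (limma adjusted p = 0.199), and *Txnrd1*, for thioredoxin, at -0.14 (limma adjusted p = 0.26). The peroxidase *Prdx2* was at -0.072 (adjusted p = 0.481). Of 11 tested NRF2 targets outside the pathway, 0 passed the adjusted threshold, 2 were higher and 1 lower at an unadjusted p, and the median was 0.088. *Gclc*, of glutathione synthesis, was at -0.26 (adjusted p = 0.147), while the ferritin subunits *Ftl1* and *Fth1* were at 0.55 and 0.13 (adjusted p = 0.219 and 0.246). These values of NRF2 targets thus lay on both sides of 0.

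Of 13 regulators reported to act on these genes, 0 passed the adjusted threshold and *Mycn*, a growth-promoting transcription factor, was the only one past an unadjusted p, at -0.12 (limma adjusted p = 0.235). *Srebf1*, which encodes an SREBP, measured 2368, 2649 and 2355 normalized counts across the controls, against 1939, 2422 and 2376 across the mutants, at -0.13 (adjusted p = 0.51). Mutant pool 1 was the lowest of these and the other pools overlapped.

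**Figure D5:**
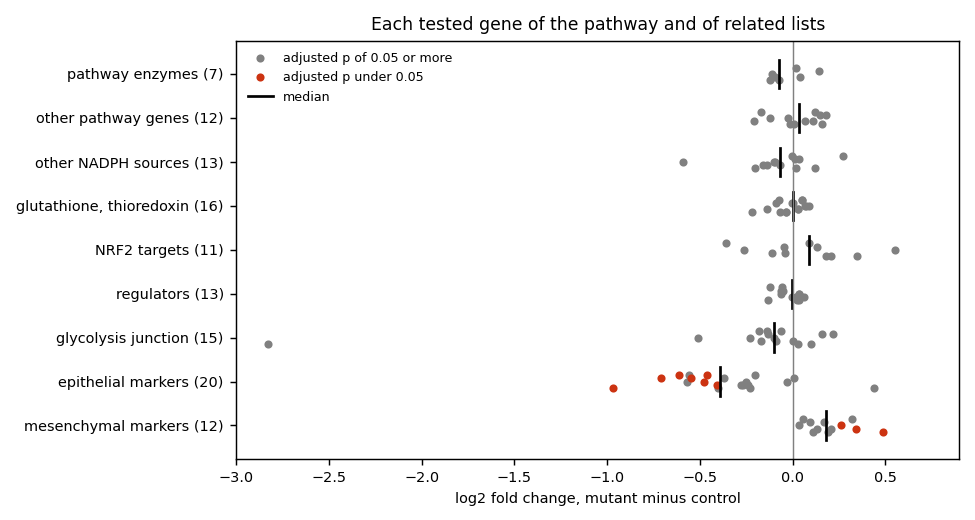
Log2 fold change of each tested gene (x axis) of the pathway and of related gene lists, with the number of genes in brackets and black lines at the medians. In the limma fit shown, none of the 7 enzymes or of the 6 metabolic and regulatory lists holds a gene past the adjusted threshold, whereas 7 epithelial and 3 mesenchymal markers do.

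Markers of several cell types passed the adjusted threshold. Of 20 epithelial markers, 18 were lower, 7 of them past the adjusted threshold (*Cdh1*, *Krt8*, *Krt18*, *Cldn4*, *Cldn6*, *Grhl2* and *Spint1*), with a median of -0.39. *Krt19*, which is also among the mesothelial markers, was higher at 0.44 with the groups apart (limma adjusted p = 0.0734), and DESeq2 called it. *Id2* was at 0.0076. All 12 mesenchymal markers were higher, with *Col1a1*, *Col1a2* and *Col3a1* past the threshold and a median of 0.18. Of 10 endothelial markers 7 were higher at an unadjusted p, and of 6 mesothelial markers *Wt1* was higher past the adjusted threshold. Of the 9 macrophage and 8 erythroid markers tested, 0 passed an unadjusted p, with summed levels that overlapped between groups. Of 8 neural and 8 cardiac markers, 2 each were lower at an unadjusted p, and summed cardiac markers were 1199.7 to 1299 normalized counts in control and 928 to 991 in mutant pools. The part of these differences in the values of the enzymes was not tested. When libraries were scaled to the epithelial markers, which sets these markers level by construction, the median over all genes moved to 0.36. Relative to that median *Rpia* was at 0.14, *Tkt* and *Pgd* at -0.11 each and *G6pdx* at -0.071. The scaling shifts every gene of a library alike. By construction these relative values therefore repeat the main fit less its own median of -0.0021, and they are no check on the part of the cell types.

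Over the 6 pools, the members did not share a single profile. Measured as the root mean square difference between log2 profiles centred on their own means, the closest pair was *Pgd* and *Tkt* at 0.0381, followed by *G6pdx* and *Taldo1* at 0.0563, and the farthest was *Rpia* and *Tkt* at 0.148. Among 11451 other genes with a mean of at least 100, *Hspa14* (0.00894) and *Etf1* (0.00917) were nearest to the mean profile of the 7 members. Nearest to *G6pdx* alone were *Srp68* (0.0125), *Tctn2* (0.0134) and *Thoc3* (0.0136). Their own log2 fold changes were between -0.086 and -0.014, with adjusted p from 0.574 to 0.925. The likeness is a description of these 6 pools.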

How the data were processed

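RNA-Seq of 3 control and 3 mutant pools of lungs at E11.5dpc was used, with groups and replicate numbers taken from the labels. The submitters' processing notes name Trim Galore, HISAT2, featureCounts, DESeq2 and mm10, and versions, filters and the strand setting are not given in the sources used here. The authors deposited 1 table whose signal values are normalized counts, made by the authors from gene reads and 1 size factor per library. Columns with the authors' log2 fold changes, their test statistic (a score) and their p-values hold a comparison of their own and were not used. Symbols of 27 genes had turned into dates, and 4 rows share such a symbol.

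log2(normalized count + 1) was compared with limma 3.58.1 (R 4.3.3; lmFit, eBayes with trend) for genes with at least 1 normalized count in at least 3 libraries. Benjamini-Hochberg adjustment was over all genes tested, with a threshold of 0.05, and no replicate block was used. edgeR 4.0.16 and DESeq2 1.42.0 on recovered whole reads were alternatives, beside other filters, pseudocounts and scalings, covariates and the omission of single pools. Scripts were tested on simulated data. Intervals from reads cover counting error only. Gene positions and exons are from GENCODE for GRCm38, and promoter windows from RefSeq.

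The members and gene lists were chosen with earlier results of these data known. Genes named are the 7 members, the 3 genes of lowest p in each related list with any past the adjusted threshold, markers past that threshold, *Xist* and Y-linked genes, and the 3 genes nearest to the mean profile of the members and to *G6pdx*, of which 1 is not reported here.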

Additional observations from a re-analysis of the deposited data

How the results depend on the processing

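Over all genes, 86 were called. The count was 277 with DESeq2 and 8 without the variance trend, 10271 with libraries scaled to epithelial markers and 210 with control pool 2 as the only control, a choice made after seeing the data because control pools 1 and 3 had the most *Xist*; its spread comes from the mutant pools alone, the lone control being assumed to vary as they do, so its calls support nothing further. It ran from 1 to 468 when single pools were left out, so the background for the members is itself unsteady. The median log2 fold change of the members was -0.11 with *Xist* as a covariate and 0.28 under epithelial scaling, and ran from -0.088 to -0.03 without single pools. Epithelial scaling gave *G6pdx* 0.28, *Pgls* 0.40, *Pgd* 0.25, *Rpia* 0.50, *Rpe* 0.38, *Tkt* 0.24 and *Taldo1* 0.26. All 7 were called after adjustment, as were 10271 of the 17168 genes tested, because this scaling moves the median of all genes to 0.36. All 7 also passed an unadjusted p, whose share over all genes was not computed in this fit. The sign of *Pgls* turned with the *Xist* covariate (-0.0096) and with control pool 2 alone (-0.051), and ran from -0.0081 to 0.085 without single pools. *Rpe* was -0.023 with the *Xist* covariate and ran from -0.058 to 0.06. *Tkt* was -0.24 with control pool 2 alone and ran from -0.18 to -0.056 without single pools, the lowest being without control pool 3. Members called after adjustment were 1 with that lone control and ran from 0 to 1 without single pools. Members past an unadjusted p were 3 with the *Xist* covariate and from 0 to 3 without single pools. For the fits without single pools, the share of all genes past an unadjusted p was not computed, so these counts have no background. Apart from the scaling to epithelial markers, for which the shift of all genes is the construction, the cause was not tested. With the replicate number as a block, 71 genes were called, with 0 members after adjustment. At an unadjusted p 2 members passed, *Pgd* and *Tkt* (limma adjusted p of 0.323 and 0.338), and *Rpia* did not (adjusted p = 0.402). The share of all genes past an unadjusted p was not computed for this fit, so these 2 cannot be set against a background. Same-numbered control and mutant pools correlated at -0.03, 0.2 and 0.08 in their deviations over 11458 genes, so the numbers were not taken to pair the pools. With 3 pools a group, the intervals of the members had a median width of 0.128 on either side on the log2 scale, and smaller changes could not be resolved.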
